A study of Mus musculus with 10 samples.

Results

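The genes of 10 transcription factors that establish and hold B lineage identity were examined by RNA-seq in sorted germinal center B cells: Pax5, Ebf1, Ikzf1, Ikzf3, Spi1, Ets1, Foxo1, Pou2f2, Runx1 and Runx3. They were chosen by name for their known roles, with earlier results of these data known. All 10 were found among the 22380 genes quantified. The question put to them was whether their RNA differed with loss of ZBTB38, a zinc finger protein of the BTB family that binds methylated DNA. ZBTB38 WT cells came from Zbtb38 fl/fl mice without Cre (n = 2), ZBTB38 HET cells from Zbtb38 fl/+ mice with Vav-Cre (n = 2), and ZBTB38 KO cells from Zbtb38 fl/fl mice with Vav-Cre (n = 6). The labels give the strain of all samples as C57Bl6/N. The floxed allele was made in C57Bl6/J zygotes and then bred to C57Bl6/N mice. Mice were immunized with NP-OVA, and NP-binding GL7+IgD- B cells were sorted 2 weeks later; ages were not given in the sources used here. Vav-Cre acts mainly in blood-forming cells and their descendants, so deletion in the HET and KO mice was not limited to B cells. The floxed allele came from 1 founder, and the WT cells carried that allele without Cre, so no control cell carried 2 unmodified alleles and no WT cell carried Cre.

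B cell fate is set in steps. In bone marrow progenitors, E proteins switch on EBF1, EBF1 and FOXO1 switch on each other, and EBF1 with PAX5 then turns on the genes of the B cell receptor and shuts off those of other lineages. PU.1 (the product of Spi1), IKAROS (Ikzf1) and RUNX1 open this programme earlier, while AIOLOS (Ikzf3), ETS1, OCT2 (Pou2f2) and RUNX3 act mostly in later B cells. In the germinal center, PAX5 and FOXO1 keep activated B cells from becoming plasma cells too soon and hold the dark zone programme, respectively.

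Each library held between 26612431 and 41059082 estimated counts, and levels below are CPM, the counts scaled to a common library size after TMM normalization, unless named as TPM, a scale that also divides by transcript length. Zbtb38 itself was at 162 and 152 CPM in WT, 117 and 106 CPM in HET, and between 18.6 and 50.3 CPM in KO (median 30.3 CPM), so every KO library lay below every control. These sums cover all exons of the gene. The authors reported a complete loss of reads in KO within the floxed exon, which holds the whole coding sequence. The source of the counts left in KO was not tested. The log2 fold change of Zbtb38 was 2.31 in WT against KO (edgeR adjusted p = 0.0734) and 2.08 in WT plus HET against KO (edgeR adjusted p = 0.0104). In HET against KO it was 1.82, where edgeR did not call the gene (adjusted p = 0.128) and DESeq2 did (adjusted p = 2.58e-06). In WT against KO it was 1.19 with counts scaled by transcript length, and over all alternatives the adjusted p ran from 2.93e-09 to 1.00. All 10 germinal center B cell markers were above 1 CPM in every library, with a summed level of 4719 to 4778 CPM in WT, 5688 to 5708 CPM in HET and 4030 to 6166 CPM in KO. Marker lists of other cells were also detected, and were lower in HET than in WT. The 8 naive B cell markers summed to 938 to 1073 CPM in WT, 459 to 500 CPM in HET and 595 to 1498 CPM in KO. The 16 T cell markers summed to 406 to 448, 254 to 265 and 290 to 398 CPM, and the 15 myeloid markers to 497 to 629, 95.2 to 108 and 85.8 to 812 CPM, in the same order. No gene of these 3 lists was at 0 in every library. Above 1 CPM in every library were all 8 naive B cell markers, 8 of 16 T cell markers and 8 of 15 myeloid markers. KO replicate 6 stood furthest from the other libraries, with a median correlation of log2 values over genes of 0.954, against 0.971 to 0.983 for the rest.

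All 10 factors passed the filter on low counts in every comparison, and the least abundant, Runx3, still had at least 338 estimated counts in each library. Ranked by mean TPM over the 10 libraries, which allows comparison between genes, Spi1 stood first at 170 ± 19.0 TPM (SD, n = 10), followed by Ets1 at 156 ± 35.8 TPM and Ikzf3 at 146 ± 28.9 TPM. The order of these 3 was not fixed, since each neighbouring pair kept it in 6 of 10 libraries. Spi1 TPM included 53.6 and 18.8 TPM of short transcripts, of 544 and 402 bases. Its 2034-base transcript alone was at 97.4 TPM, below Ets1 and Ikzf3, so the first rank rested on how Salmon divided the reads. Ikzf1 came next at 100.4 ± 19.4 TPM, below Ikzf3 and above Pou2f2 in all 10 libraries. Pou2f2 at 69.0 ± 6.55 TPM and Ebf1 at 63.4 ± 13.2 TPM were in that order in 7 of 10 libraries. Foxo1 followed at 46.5 ± 4.77 TPM and Pax5 at 30.3 ± 10.9 TPM, with Foxo1 the higher in 9 of 10. The RUNX genes closed the list, Runx1 at 16.8 ± 4.16 TPM, below Pax5 in all 10 libraries, and Runx3 at 7.30 ± 2.19 TPM, below Runx1 in all 10. Among all genes tested, Spi1 stood at the 92.6th percentile of TPM, Pax5 at the 67.6th and Runx3 at the 43.4th. The TPM ranges of all neighbouring pairs overlapped over the 10 libraries.

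**Figure D1:**
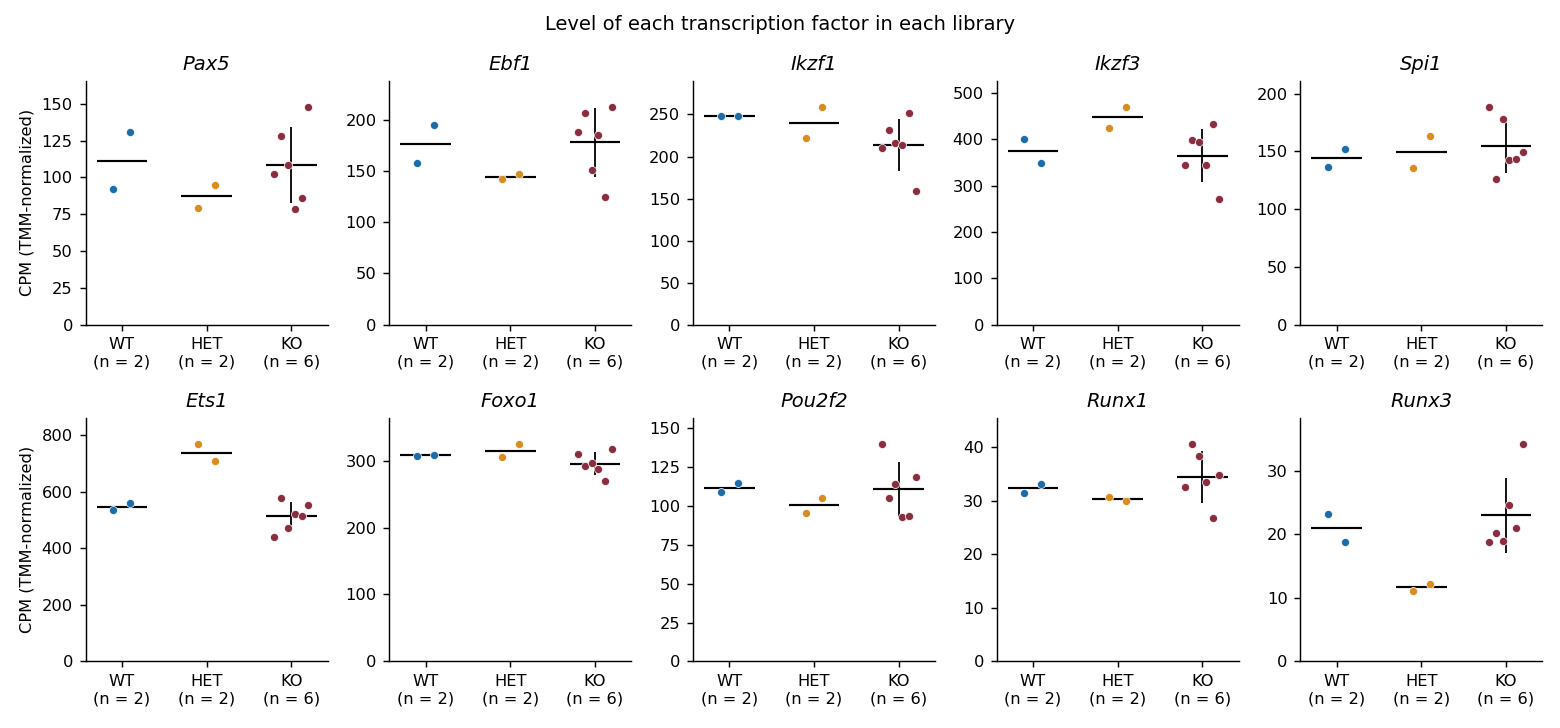
Level of each of the 10 factors in each library (CPM, y axis from 0), by genotype (x axis). Points are libraries, horizontal bars are means and vertical bars are ± 1 SD for the 6 KO libraries. WT and KO libraries overlap in every panel, whereas both HET libraries lie above all others for Ets1 (769 and 707 CPM) and below all others for Runx3 (11.1 and 12.2 CPM).

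Between ZBTB38 WT and KO, none of the 10 factors passed an adjusted p of 0.1 in edgeR's quasi-likelihood test, and none had an unadjusted p under 0.05. DESeq2 and limma called none of them either. Over all genes tested, 0.00704% passed the first threshold, which was Zbtb38 alone, and 2.19% the second. WT and KO libraries overlapped for all 10 factors, where 6.58% of genes tested did not overlap. Log2 fold changes of WT over KO lay between -0.13 for Runx3 and 0.22 for Ikzf1, 6 of them positive. Their median size without regard to sign was 0.077, against 0.226 over all genes. The 95% confidence interval stayed within a 2-fold change for all 10 factors and within a 1.5-fold change for 9 of them.

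With WT and HET pooled as controls (n = 4) against KO (n = 6), again no factor was called by edgeR, where 0.00749% of genes were, and DESeq2 called none either. Ets1 was the 1 factor with an unadjusted p under 0.05, where 6.3% of all genes had one. No factor had control and KO libraries that did not overlap, where 1.51% of genes did. Log2 fold changes of controls over KO ran from -0.49 for Runx3 to 0.32 for Ets1, and the interval stayed within a 2-fold change for 9 of 10 factors, Runx3 being the exception. The median over the 10 factors was -0.070, beside -0.023 over all genes.

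**Figure D2:**
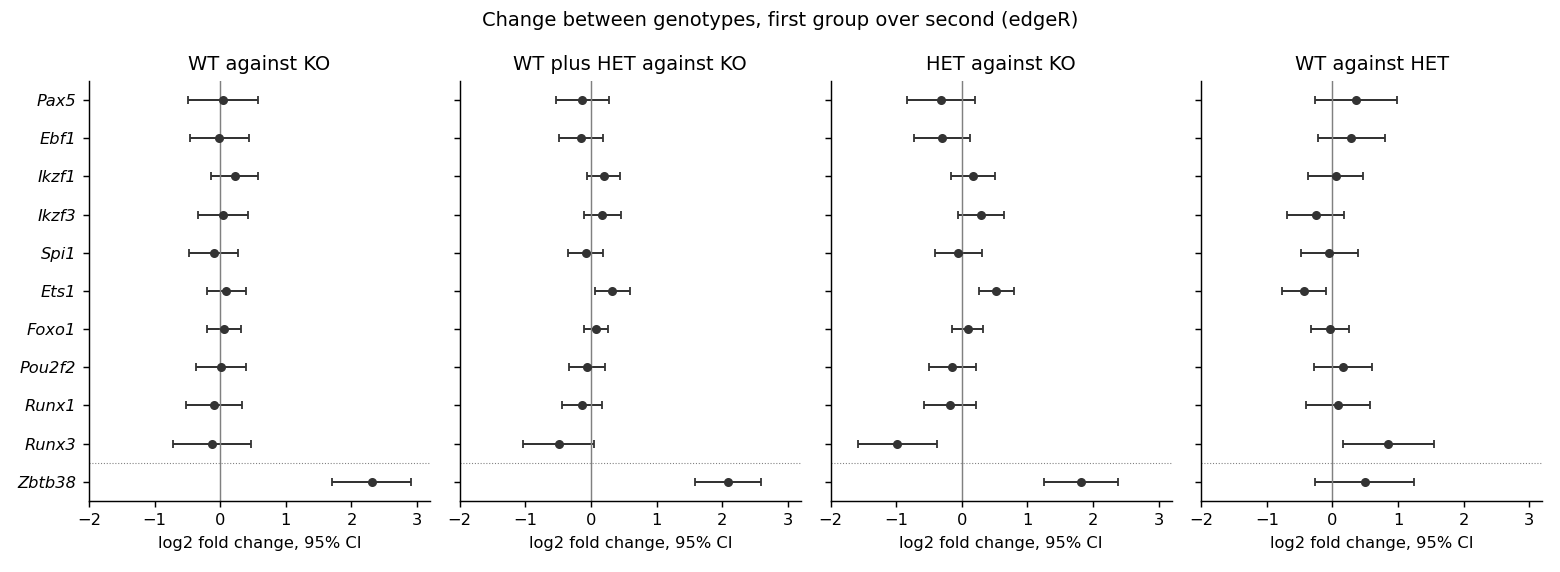
Log2 fold change of each factor, first group over second (x axis), with its 95% confidence interval from edgeR, in each of the 4 comparisons. Zbtb38 is set apart at the bottom, and values of the 10 factors for WT against KO lie between -0.13 and 0.22.

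Gene positions are those of GRCm38. Pax5 (chromosome 4, 44524757 to 44710487, minus strand) encodes the factor that commits progenitors to the B lineage. It was at 92.0 and 131 CPM in WT, 79.0 and 95.1 CPM in HET, and between 78.4 and 148 CPM in KO (median 105 CPM). The 3 genotypes overlapped, and the widest gap was between libraries of the same genotype, KO replicates 4 and 6. WT over KO was 0.04 on the log2 scale (SE 0.241), and HET over KO was -0.32 (SE 0.237, edgeR adjusted p = 0.656). The sign of the latter depended on the scale, since it was 0.10 on log2(TPM + 1). Pax5 counts were divided among 16 quantified transcripts of very different length, and the 8004-base transcript ENSMUST00000014174.13 held between 33.4% and 75.6% of Pax5 TPM in a library (median 59.2%).

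Ebf1 (chromosome 11, 44617317 to 45008091, plus strand), whose product acts with PAX5 and opens closed chromatin at B cell genes, was at 158 and 194 CPM in WT and 142 and 147 CPM in HET. In KO it ran from 125 to 212 CPM with a median of 186 CPM. KO replicate 6 was highest and KO replicate 5 lowest, so the KO libraries spanned both other genotypes. HET over KO was -0.30 (SE 0.194, edgeR adjusted p = 0.607), and WT over KO was -0.01 (SE 0.202), which turned to 0.15 on log2(TPM + 1).

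Across the 10 libraries, log2(CPM + 1) values of Pax5 and Ebf1 were related with a Pearson r of 0.70 (permutation p = 0.0265, adjusted over 3 pairs 0.0397) and a Spearman rho of 0.72 (permutation p = 0.0242, adjusted 0.0362). Without the 2 libraries farthest from the median of Pax5, KO replicate 6 and WT replicate 2, r was 0.51 (exact permutation p = 0.195). The relation did not pass without them. Leaving out extreme values also narrows the range, so this cannot decide whether it rested on those libraries. Within the 6 KO libraries r was 0.59 (exact permutation p = 0.200, two-sided). WT and HET, with 2 libraries each, allowed no value of their own.

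Ikzf1 (chromosome 11, 11685003 to 11772926, plus strand) and Ikzf3 (chromosome 11, 98464902 to 98546031, minus strand) encode IKAROS and AIOLOS, zinc finger proteins that pair with each other and both silence and sustain lymphoid genes. Ikzf1 was at 249 and 248 CPM in WT, 222 and 259 CPM in HET, and between 159 and 252 CPM in KO (median 214 CPM). Ikzf3 was at 400 and 350 CPM in WT, 425 and 470 CPM in HET, and between 271 and 433 CPM in KO (median 370 CPM). Both genes were lowest in KO replicate 6 and highest in HET replicate 2, and neither separated KO from WT. Controls over KO was 0.19 for Ikzf1 (SE 0.118, edgeR adjusted p = 0.744) and 0.17 for Ikzf3 (SE 0.132, edgeR adjusted p = 0.773).

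The paralogs varied together from library to library, with a Pearson r of 0.84 (permutation p = 0.0110, adjusted 0.0329) and a Spearman rho of 0.87 (permutation p = 0.00232, adjusted 0.00696) over 10 libraries. Within the KO libraries alone r was 0.96 (exact permutation p = 0.00556, adjusted 0.0167, n = 6). Leaving out KO replicate 6 and HET replicate 2, the farthest from the median of Ikzf1, brought r to 0.40 (exact permutation p = 0.288). This relation too did not pass without 2 libraries, with the same limit from the narrower range. Without KO replicate 6 alone r was 0.58 (permutation p = 0.106). In that library Pax5, Ebf1 and Runx3 were at their highest and both IKZF genes at their lowest.

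**Figure D3:**
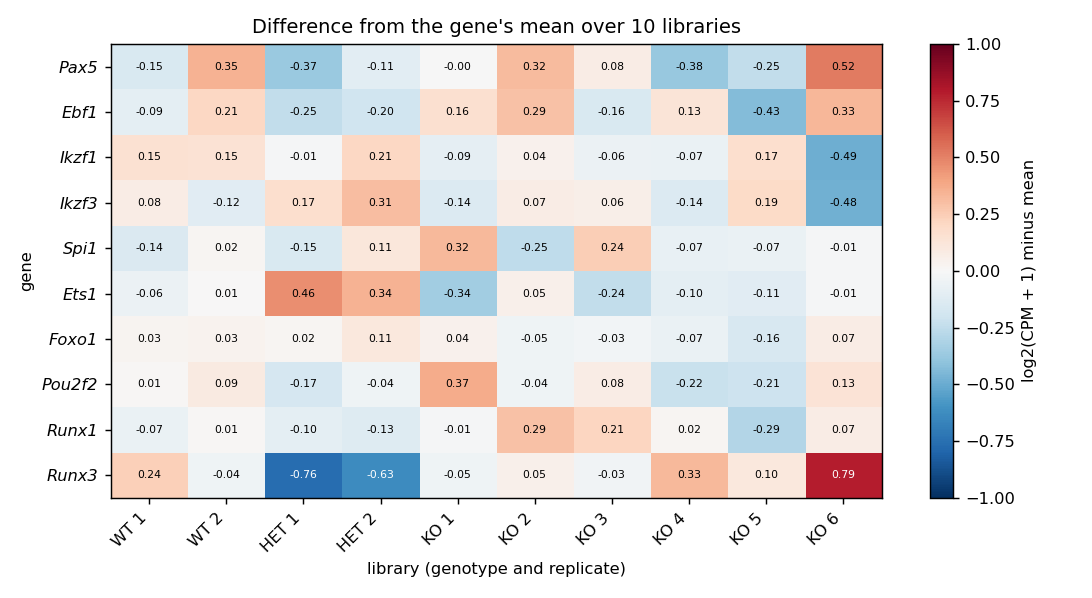
Difference of each factor (rows) from its own mean over the 10 libraries (columns), on the log2(CPM + 1) scale, red above and blue below. KO replicate 6 holds the highest value of 3 factors and the lowest of 2, and the HET columns depart from the rest for Ets1 and Runx3.

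Spi1 (chromosome 2, 91082390 to 91115756, plus strand) encodes PU.1, which drives myeloid fate at high dose and B cell fate at low dose. It was at 136 and 152 CPM in WT, 135 and 163 CPM in HET, and between 126 and 188 CPM in KO (median 146 CPM). Spi1 was not highest where the myeloid markers were. KO replicate 4, with a summed myeloid level of 812 CPM, had 143 CPM of Spi1, and KO replicate 1, with 113 CPM of those markers, had the most Spi1, 188 CPM. WT over KO was -0.10 (SE 0.168), a sign that turned to 0.08 on log2(TPM + 1).

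Foxo1 (chromosome 3, 52268336 to 52353221, plus strand), a forkhead factor that germinal center B cells need for the dark zone, was the steadiest of the 10 in CPM. It was at 307 and 308 CPM in WT, 305 and 325 CPM in HET, and between 269 and 317 CPM in KO (median 294 CPM). Among the 6 KO libraries the SD of its log2(CPM + 1) was 0.084, at the 1.23th percentile of all genes tested and the 3.7th of the 1000 genes nearest to it in level. On TPM, Pou2f2 varied less relative to its mean, at 66.1 ± 4.48 TPM in KO (SD, n = 6), against 43.9 ± 4.26 TPM for Foxo1. Controls over KO for Foxo1 was 0.08 (95% interval -0.10 to 0.25), the narrowest interval of the 10. Over the alternatives it ran from 0.05 to 0.21. Pax5, by contrast, stood at the 79.4th percentile of its 1000 neighbours in level and Ebf1 at the 74.8th.

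Pou2f2 (chromosome 7, 25087344 to 25179726, minus strand) encodes OCT2, the octamer-binding factor of immunoglobulin promoters. It was at 109 and 115 CPM in WT, 95.7 and 105 CPM in HET, and between 92.6 and 140 CPM in KO (median 109 CPM). KO replicate 1 was highest and KO replicate 4 lowest, so all controls fell inside the KO range. WT over KO was 0.02 (SE 0.172). Its coactivator gene Pou2af1, the most abundant of the partner genes listed below, was at 2091 and 2101 CPM in the HET libraries, above the 1273 to 1758 CPM of the other 8.

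Ets1 (chromosome 9, 32636221 to 32757820, plus strand) encodes an ETS factor that restrains plasma cell differentiation. Its levels were 534 and 560 CPM in WT, 769 and 707 CPM in HET, and 439 to 577 CPM in KO with a median of 518 CPM. Both HET libraries were above all 8 others, and WT lay inside the KO range. HET over KO was 0.53 (SE 0.121, 95% interval 0.26 to 0.79), with an unadjusted p of 0.00103 that did not pass adjustment over all genes in edgeR (adjusted p = 0.255). DESeq2 did call it (adjusted p = 0.00442), and over all alternatives the adjusted p ran from 0.00442 to 0.921. WT over HET was -0.43 (SE 0.153, edgeR adjusted p = 0.709), and WT over KO was 0.09 (SE 0.134). The value of 0.32 for both controls together (SE 0.124, edgeR adjusted p = 0.744) rested on HET. Without HET replicate 1 it was 0.23 (unadjusted p = 0.0998, edgeR adjusted p = 0.930), and without HET replicate 2 it was 0.28 (unadjusted p = 0.0701, edgeR adjusted p = 0.992). One transcript, ENSMUST00000034534.12, held between 94.9% and 98.2% of Ets1 TPM, and its own fold change of controls over KO was 0.33 (SE 0.122, edgeR adjusted p = 1.00). Ets1 lies on the chromosome of Zbtb38, 63.9 Mb away.

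Runx3, the less abundant of the 2 RUNX genes among the 10 factors, was at 23.1 and 18.8 CPM in WT, 11.1 and 12.2 CPM in HET, and 18.8 to 34.3 CPM in KO (median 20.6 CPM). Both HET libraries were below all 8 others, and WT lay within the KO range. HET over KO was -0.98 (SE 0.273, 95% interval -1.58 to -0.38, unadjusted p = 0.00393), with an edgeR adjusted p of 0.333. DESeq2 called it as well (adjusted p = 0.0281), and the range over all alternatives was 0.0281 to 0.921. DESeq2 called 3.54% of the genes for which it gave an adjusted p in this comparison. WT over HET was 0.85 (SE 0.317, edgeR adjusted p = 0.716). Without KO replicate 6, the highest library for Runx3, HET over KO was -0.84 (edgeR adjusted p = 0.230). WT over KO was -0.13 (SE 0.268), and turned to 0.05 on log2(TPM + 1).

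Ets1 and Runx3 were thus the 2 of 10 factors whose HET libraries did not overlap KO, where 13.9% of genes tested did not. These were also the 2 with an unadjusted p under 0.05 in HET against KO, where 10.2% of genes had one, and 0.00697% of genes were called. For 11.1% of genes both HET libraries lay above or below all 8 others, a count added after the values were seen. In WT against HET, Ets1 and Runx3 again had an unadjusted p under 0.05 (6.42% of genes), no factor was called (0.00697% of genes), and libraries did not overlap for 6 of 10 factors, where 48% of genes did not. When only these 4 libraries were fitted, Ets1 was called, as were 3.96% of genes. The comparison shared its HET libraries with HET against KO. With all 10 libraries in the model, the gene called in HET against KO and in WT against HET was Hnrnpll, an RNA-binding regulator of splicing and no member of the group, named after its values were seen.

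Other gene lists differed between HET and KO as well. In HET against KO, the median log2 fold change of the naive B cell markers was -1.25, beside -0.068 over all genes. Of these markers, 7 of 8 had an unadjusted p under 0.05, where 10.2% of all genes had one, and were lower in HET. The same held for 7 of 16 T cell markers (median -1.09) and 6 of 14 myeloid markers tested (median -1.55). No marker of these 3 lists had an adjusted p under 0.1 in edgeR. The myeloid list did not set HET apart from every KO library. Its sums were 113 and 85.8 CPM in KO replicates 1 and 2, beside 95.2 and 108 CPM in HET. Of the germinal center B cell markers, 8 of 10 were higher in HET, 1 of them with an unadjusted p under 0.05. Between controls and KO, 1 of 9 plasma cell markers and 3 of 4 erythroid markers tested had an unadjusted p under 0.05, all lower in controls. Over all genes, 6.3% had one. The erythroid markers were near the floor, with 1 of 8 listed above 1 CPM in every library and 1 at 0 in all. RUNX3 is also well known in T cells. The HET libraries had the lowest T cell marker sums, 254 and 265 CPM, and the least Runx3, 11.1 and 12.2 CPM. KO replicate 6, with the most Runx3 at 34.3 CPM, and KO replicate 1, with the least of the KO libraries at 18.8 CPM, both had a T cell marker sum of 398 CPM, and WT replicate 2, with the highest sum at 448 CPM, had 18.8 CPM of Runx3. The naive B cell marker sum was highest in KO replicate 6, at 1498 CPM. The part of these cells in the Ets1 and Runx3 values was not tested, and in bulk libraries fewer cells of a type and less RNA per cell cannot be told apart.

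**Figure D4:**
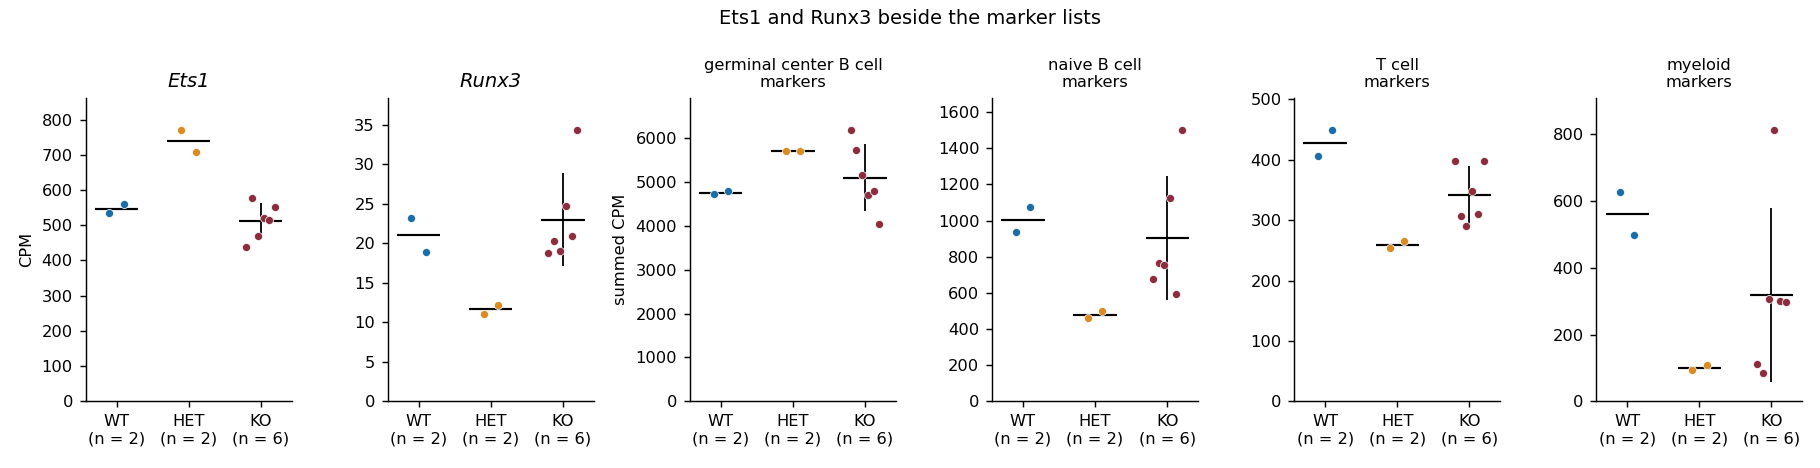
Ets1 and Runx3 (CPM) and the summed CPM of 4 marker lists in each library, by genotype, with means as horizontal bars and ± 1 SD for the 6 KO libraries. Both HET libraries are highest for Ets1, lowest for Runx3, and lowest for the naive B cell (459 and 500 CPM) and T cell (254 and 265 CPM) markers.

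RUNX proteins bind DNA with the shared partner CBFβ, and each mammalian RUNX gene is read from a distal and a proximal promoter that give proteins with different first residues. Runx1 (chromosome 16, 92601466 to 92826149, minus strand) and Runx3 (chromosome 4, 135120652 to 135177990, plus strand) therefore offered a readout beyond the gene sum. The 250 bases before each start site are shown because the transcripts divided between them. They are from RefSeq (GRCm38.p6), 5′ to 3′ on the gene's strand, with CpG dinucleotides in capitals.
Runx1 distal, chr16:92826075-92826324, minus strand: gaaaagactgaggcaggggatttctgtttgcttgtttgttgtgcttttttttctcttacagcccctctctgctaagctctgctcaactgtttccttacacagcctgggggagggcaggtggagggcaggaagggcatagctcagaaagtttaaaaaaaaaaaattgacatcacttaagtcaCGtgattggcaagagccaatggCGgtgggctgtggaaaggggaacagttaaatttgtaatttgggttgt
Runx1 proximal, chr16:92697330-92697579, minus strand: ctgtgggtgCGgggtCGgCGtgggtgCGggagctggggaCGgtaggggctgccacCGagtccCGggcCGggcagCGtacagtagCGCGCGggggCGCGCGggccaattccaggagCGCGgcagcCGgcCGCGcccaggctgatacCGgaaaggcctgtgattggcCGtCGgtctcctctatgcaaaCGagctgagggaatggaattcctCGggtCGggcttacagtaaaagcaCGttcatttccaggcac
Runx3 distal, chr4:135120395-135120644, plus strand: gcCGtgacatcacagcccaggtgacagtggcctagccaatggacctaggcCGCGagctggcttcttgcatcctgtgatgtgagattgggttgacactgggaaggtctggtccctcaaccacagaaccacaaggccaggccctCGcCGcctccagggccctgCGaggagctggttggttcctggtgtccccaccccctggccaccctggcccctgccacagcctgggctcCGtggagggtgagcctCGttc
Runx3 proximal, chr4:135152295-135152544, plus strand: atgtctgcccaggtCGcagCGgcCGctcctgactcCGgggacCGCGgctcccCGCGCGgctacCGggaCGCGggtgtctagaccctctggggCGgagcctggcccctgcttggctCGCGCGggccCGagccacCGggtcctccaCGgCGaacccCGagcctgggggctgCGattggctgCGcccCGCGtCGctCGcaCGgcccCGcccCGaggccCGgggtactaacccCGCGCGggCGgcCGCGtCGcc

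The distal windows were poorer in CpG than the proximal ones. In the 300 bases from 250 before to 50 after the start, the Runx1 distal window held 2 CpG and its proximal window 35. For Runx3 they held 8 and 45. Among all 32851 windows of the table, with a median of 7, these stood at the 14.1th, 93.0th, 51.4th and 98.1th percentile.

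The distal windows of both genes also held the RUNX core motif TGTGGT, read on either strand, as a pair with 2 bases between the copies, and neither proximal window held the motif at all. A single TGTGGT on either strand was found in 16.8% of windows, and such a pair in 7 of 32851 (0.0213%). One of the 7 was the distal window of Runx2, the third gene of the family, and 1 overlapped the Runx3 window on the other strand. The pairs are printed with 8 bases on each side and the motif in capitals, 29 bases after the Runx1 start, 24 bases after the Runx2 start and 134 bases before the Runx3 start.
Runx1, chr16:92826025-92826054, minus strand: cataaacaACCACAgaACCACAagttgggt
Runx2, chr17:44814583-44814612, minus strand: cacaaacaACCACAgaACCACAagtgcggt
Runx3, chr4:135120503-135120532, plus strand: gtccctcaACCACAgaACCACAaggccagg

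These matches describe the letters only. Runx2 itself was all but silent, between 0 and 0.744 CPM in any library. Of the 10 factors, 7 had windows in the table. Cbfb, the gene of the shared partner, had a log2 fold change of 0.08 between controls and KO (SE 0.151).

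Runx1 was at 31.3 and 33.1 CPM in WT, 30.7 and 30.0 CPM in HET, and between 26.7 and 40.6 CPM in KO (median 34.1 CPM). All controls lay inside the KO range, and controls over KO was -0.14 (SE 0.139, edgeR adjusted p = 0.827). Its counts came mostly from the distal start. Transcripts of the proximal start took 7.49% and 28.3% of start-assigned counts in WT, 2.78% and 9.71% in HET, and 13.4% to 31.6% in KO. The 2 HET libraries and WT replicate 1 were the lowest 3, and WT replicate 2 fell among the KO libraries. The mean was 12.1% ± 11.2 in controls (SD, n = 4) and 22.0% ± 6.50 in KO (SD, n = 6), a difference of -9.92 percentage points (exact permutation p = 0.124, two-sided, smallest possible 0.00952). Without WT replicate 2 it was -15.3 percentage points (exact permutation p = 0.0238, the smallest possible there), so that library decided the call. Over all single libraries left out, the exact permutation p ran from 0.0238 to 0.286. This comparison was chosen after the transcript annotation had been seen.

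Runx3 RNA was mostly distal in all 3 genotypes, with a proximal share of 0% to 4.55% of counts in a library (median 0.997%), or 0% to 9.69% of TPM (median 2.22%), since the proximal transcript is the shorter one. A share of 0 was found in HET replicate 1 and KO replicate 1, which allows shares of up to 0.861% and 0.582%. Controls and KO differed by 1.33 percentage points (exact permutation p = 0.152), and by 2.01 without HET replicate 1 (exact permutation p = 0.0238, the smallest possible there). Over all single libraries left out, the exact permutation p ran from 0.0238 to 0.381. These shares rested on 0 to 15.4 proximal estimated counts per library.

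**Figure D5:**
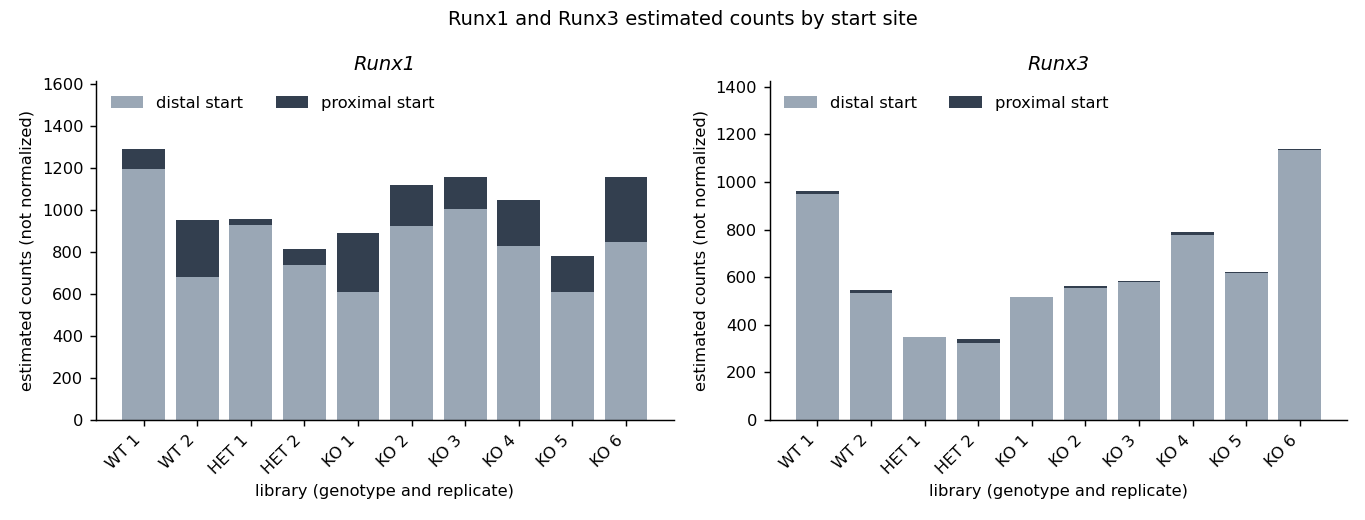
Estimated counts of Runx1 (left) and Runx3 (right) in each library (x axis), stacked by distal and proximal start site and not normalized for library size. The proximal part reaches 31.6% of Runx1 counts in KO replicate 1 and at most 4.55% of Runx3 counts in any library.

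Of all transcripts of the 10 genes, 37 could be tested between controls and KO, none was called, where 0.00344% of transcripts were, and 2 had an unadjusted p under 0.05, where 3.93% did. One was the main Ets1 transcript. The other was the proximal Runx1 transcript ENSMUST00000113956.9, which begins at 92697328 and was at -1.38 (SE 0.539, unadjusted p = 0.0266, edgeR adjusted p = 1.00), named here after its value was seen. Over the alternatives its value ran from -1.39 to -0.50, with an unadjusted p of up to 0.388. The most abundant Runx1 transcript, distal ENSMUST00000023673.13, was at 0.15 (SE 0.203). Reads shared by transcripts of a gene were divided by Salmon's model, so these values carry that uncertainty as well.

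Among 25 other B lineage factors and partners, none was called between controls and KO, 2 had an unadjusted p under 0.05 and were higher in controls, and 1 was lower, where 6.3% of all genes had such a p. Stat5b, which relays IL-7 signals in progenitors, was at 117 to 149 CPM in controls and 53.7 to 110 CPM in KO (log2 fold change 0.64, SE 0.200, edgeR adjusted p = 0.744). Tcf4, an E protein gene, was at 149 to 187 CPM in controls and 195 to 260 CPM in KO (-0.34, SE 0.107, edgeR adjusted p = 0.744). Its relative Tcf3 ran the other way, 518 to 587 CPM in controls and 390 to 499.7 CPM in KO. The values of these 3 genes did not overlap between controls and KO, as for 1.51% of all genes, and did not pass adjustment. Tcf3 was named after its values were seen. The abundant Spib and Pou2af1 had log2 fold changes of 0.23 (SE 0.110) and 0.19 (SE 0.143).

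Of 15 B cell surface and signalling genes, many of them PAX5 and EBF1 targets, 3 had an unadjusted p under 0.05, all higher in controls, where 6.3% of all genes had such a p, and none was called. They were Syk, the kinase of the B cell receptor (0.41, SE 0.131), Ptprc, which encodes CD45 (0.24, SE 0.0939), and the kinase gene Btk (0.23, SE 0.106), each with an edgeR adjusted p of 0.744. The most abundant, Cd79a and Cd79b, which encode the receptor's signalling chains, were at -0.24 (SE 0.151) and -0.13 (SE 0.132).

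Genes known to be repressed by PAX5 gave no count at an unadjusted p under 0.05 between controls and KO, with 9 of 10 tested and a median of -0.033. The named ones, Xbp1 and Jchain, were at -0.27 (SE 0.188) and -0.20 (SE 0.140). In HET against KO the list's median was -0.92, beside -0.068 over all genes, and 2 of 10, Grap2 and Sdc1, were below an unadjusted p of 0.05, where 10.2% of all genes were. Grap2 is a T cell adaptor gene and Sdc1 encodes the plasma cell protein CD138. Of the 10 genes, 6 also stand on the lists of myeloid, T cell or plasma cell markers, so this median is not separate from theirs.

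Known FOXO1 targets were examined beside the Foxo1 values. Between controls and KO, 1 of 10 had an unadjusted p under 0.05, where 6.3% of all genes had one. It was Rag2, a gene of the V(D)J recombinase, at 0.128 to 1.41 CPM in controls and 2.44 to 3.62 CPM in KO (-1.72, SE 0.586, edgeR adjusted p = 0.744). Its partner Rag1 was at -2.02 (SE 1.04, edgeR adjusted p = 0.744), but at -0.75 without KO replicate 6. With the replicate number as a block Rag1 was at -0.14, a value in which KO was represented by replicates 1 and 2 only. Ccng2, a cyclin gene and among the most abundant of the list, was at 0.10 (SE 0.136). In HET against KO, 4 of 10 were lower at that threshold, where 10.2% of all genes differed in either direction, and the list median was -0.96, beside -0.068 over all genes. Among them were Rag2, Klf2 and S1pr1, and the last 2, which act in lymphocyte trafficking, stand on the naive B cell list too. Klf2 was at 119 and 137 CPM in WT, 32.6 and 38.7 CPM in HET, and 60.3 to 226 CPM in KO. HET over KO for Foxo1 itself was 0.09 (SE 0.108).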

How the data were processed

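RNA-seq profiles of NP-binding germinal center B cells covered 2 mice of the WT, 2 of the HET and 6 of the KO genotype of ZBTB38, grouped by the sample labels. The authors prepared cDNA with SMART-Seq v4, read it from both ends and quantified transcripts with Salmon 0.9.1 (version per the submitters' processing notes) against Gencode vM17. The authors deposited estimated counts per transcript, not normalized and not always whole, and TPM values, which are scaled for effective length and depth.

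Estimated counts were summed per gene and rounded. Each comparison was fitted over all genes with edgeR 4.0.16 (quasi-likelihood test, TMM, filterByExpr, Benjamini-Hochberg adjustment, threshold 0.1) in R 4.3.3. WT against KO used its own 8 libraries and WT plus HET against KO all 10. The remaining pairs of genotypes came from 1 model of all 10 libraries with a coefficient for each genotype. Fold changes are first group over second. Alternatives were DESeq2 1.42.0, its size factors in edgeR, no filter, at least 10 counts in every library, exclusion of immunoglobulin genes, length-scaled counts, limma 3.58.1 on log2(TPM + 1) and log2(TPM + 0.1), the replicate number as a block, other library sets, omission of single libraries and a stricter threshold (0.05). Correlations used permutation tests with 100000 resamples, or exact ones within KO, in scipy 1.17.1. The fits were tested on simulated data.

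The 10 genes, the lists, the tests and the alternatives were chosen with earlier results of these data known. Named beyond the 10 genes are, in each list, the 2 genes with the highest mean TPM, the 2 with the smallest unadjusted p between controls and KO and any called, and, per factor, up to 3 transcripts by TPM. Marker lists are given as sums and counts only, and some list genes are not reported here. Tcf3, Btk, Klf2, S1pr1, Grap2, Sdc1, Runx2, Cbfb and Hnrnpll were named after their values were seen. Positions are from Gencode vM21 (GRCm38). Totals per library give little counting error for these genes, and limits from a count of 0 (3 counts) cover counting error only. Reads without molecular identifiers are not independent molecules.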

Additional observations from a re-analysis of the deposited data

Results flagged for a closer look

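The summed level of the 15 myeloid markers in KO replicate 4 was 812 CPM, set apart from the 85.8 to 307 CPM of the other 5 KO libraries by more than the 95% limit for a single extreme value among 6. It was the only such value among 32 groups examined, the 10 factors and 6 marker sums in controls and in KO, where chance gives about 1.6 at 1 in 20. Spi1, the factor with a myeloid role, was at 143 CPM in that library, inside the range of the other KO libraries.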

How the results depend on the processing

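Of 770 values of the 10 factors under the alternatives, 721 kept their direction and their side of the threshold, 46 turned direction and 3 became calls; the cause was not tested where none is named. Calls of factors came with DESeq2 in HET against KO (2, Ets1 and Runx3) and with only the libraries compared in WT against HET (1, Ets1, edgeR adjusted p = 0.0753, where the other alternatives reached 0.966 and left-out libraries ran from 0.418 to 1.00). Genes called were, in WT against KO, 5 with DESeq2, 0 with length-scaled counts, 0 and 3 with limma on log2(TPM + 1) and log2(TPM + 0.1), 2 with all 10 libraries in 1 fit and 0 at an adjusted p of 0.05. In WT plus HET against KO they were 18 with DESeq2 and 0 with length-scaled counts, either limma fit or the replicate block. In HET against KO they were 458 with DESeq2, 2 without a filter, 0 with at least 10 counts, 6 with limma on log2(TPM + 0.1), 4 with the replicate block and 0 with only the libraries compared. In WT against HET they were 125, 0 with at least 10 counts, 5 with limma on log2(TPM + 0.1), 66 with the replicate block and 523 with only the libraries compared. Transcripts called were 39 with DESeq2, 2 with at least 10 counts, and 0 with either limma fit or the replicate block. With each library left out, genes called ranged from 0 to 2, 1 to 2, 0 to 5 and 0 to 16 in these comparisons, and transcripts from 0 to 2.

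Replicate numbers 1 and 2 recur in each genotype, but no source ties them to a shared litter or day. Correlations of the deviations of same-numbered libraries ran from -0.008 to 0.127. With 2 libraries each in WT and HET, these values cannot decide whether a litter or day was shared. The main fits did not pair the samples. Numbers 3 to 6 occur only in KO, so with the block the KO side rested on KO replicates 1 and 2. With the replicate block no factor was called. It turned WT against KO for Pax5 (-0.0598), Pou2f2 (-0.12) and Runx3 (0.10), and WT plus HET against KO for Xbp1 (0.16).

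On log2(TPM + 1) and log2(TPM + 0.1) the median of all genes shifted to 0.11 and 0.16 in WT against KO, 0.08 and 0.11 in WT plus HET against KO, and 0.04 and 0.07 in HET against KO. In that order of pseudocounts, WT against KO turned for Ebf1 (0.15 and 0.15), Spi1 (0.0789 and 0.0794) and Runx3 (0.0460 and 0.0547). WT plus HET against KO turned for Pax5 (0.11 and 0.12), Spi1 (0.13 and 0.13), Pou2f2 (0.14 and 0.14), Cd79b (0.0136 and 0.0136) and the Pax5 transcript ENSMUST00000014174.13 (0.00956 and 0.00995). HET against KO turned for Pax5 (0.10 and 0.10), Spi1 (0.17 and 0.17) and Pou2f2 (0.0537 and 0.0545). Length-scaled counts turned WT against KO for Pax5 (-0.0468) and Ebf1 (0.00320), WT plus HET against KO for Spi1 (0.00361) and Pou2f2 (0.0276), and HET against KO for Spi1 (0.0618).

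Leaving out a library turned these: in WT against KO, Pax5 (-0.24 to 0.27), Ebf1 (-0.17 to 0.13), Ikzf3 (-0.0597 to 0.14), Pou2f2 (-0.0292 to 0.0985) and Runx3 (-0.29 to 0.0179). In WT plus HET against KO they were Pou2f2 (-0.11 to 0.0184) and the same Pax5 transcript (-0.28 to 0.00824). Spi1 turned in HET against KO (-0.19 to 0.0777) and WT against HET (-0.18 to 0.0892), as did Ikzf1 (-0.0609 to 0.16) and Foxo1 (-0.0803 to 0.0137) in the latter. The correlation of Pax5 and Ebf1 was 0.59 within KO, 0.61 without KO replicate 6 and 0.51 without the 2 farthest libraries. That of Ikzf1 and Ikzf3 was 0.58 and 0.40 in the latter cases. That of Runx1 and Runx3, 0.27 and not past the threshold (permutation p = 0.456), was -0.14 on log2(TPM + 1) and -0.0416 within KO. With 2 WT and 2 HET libraries, differences smaller than the printed intervals were not detectable.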
